A study of Mus musculus with 6 samples.

Results

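Voltage-gated calcium and sodium channels are the membrane pores that turn a change in voltage into an inward current, and 35 genes of their subunits were followed in the hippocampus of adult mice that had been exposed to ethanol as pups. The genes were those with a single gene symbol on the array that begins with Cacna, Cacnb or Cacng and a number, or with Scn, a number and a or b. They made up 35 of 19938 genes measured, and each was read from its brightest probe set, a group of short probes against 1 gene. There were 10 calcium channel alpha1 genes, 4 alpha2delta genes, 3 beta genes and 7 gamma genes, with 8 sodium channel alpha genes and 3 sodium channel beta genes.

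Male C57Bl/6J mice were injected under the skin with ethanol in saline, at 2.5 g/kg per injection, or with saline alone. Both groups had 2 injections on day 4 after birth and 2 on day 7, came from the same litters, and were killed on day 70 for dissection of the whole hippocampus. RNA of 3 males from different litters was pooled for each Affymetrix Mouse Gene ST array. There were 3 such pools, and arrays, from 9 mice exposed to ethanol and 3 from 9 saline controls. The values are log2 expression after RMA, which removes background, equalizes the arrays and averages the probes, and a difference of 1 is a factor of 2.

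The alpha1 subunit of a calcium channel and the alpha subunit of a sodium channel each form a whole pore with its voltage sensor. Sodium channels at the axon initial segment and along the axon carry the action potential, and calcium channels then open at the terminal to release transmitter or at the soma and dendrites to signal to the nucleus. The alpha2delta and beta subunits bring calcium channels to the membrane and tune their gating. Most of the brain gamma subunits are better known as TARPs, auxiliary proteins that carry AMPA-type glutamate receptors to the synapse. The sodium channel beta subunits are small adhesion-like proteins that modulate the pore.

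Promoter sequence is shown for 3 of the 4 genes that differed at an unadjusted p under 0.05, namely Cacng5, Cacna2d2 and Cacna1d. The sequences are the 250 bases before a transcription start in a RefSeq table of build GRCm38.p6, and 27 of the 35 genes had an entry there. GC boxes (the letters GGGCGG on either strand, where matches may overlap) are in capitals. The table lists 2 starts for Cacng5, of which 1 is shown, and 2 for Cacna1d, and the arrays do not tell which start was in use.
Cacng5, chr11:107915056-107915305, minus strand: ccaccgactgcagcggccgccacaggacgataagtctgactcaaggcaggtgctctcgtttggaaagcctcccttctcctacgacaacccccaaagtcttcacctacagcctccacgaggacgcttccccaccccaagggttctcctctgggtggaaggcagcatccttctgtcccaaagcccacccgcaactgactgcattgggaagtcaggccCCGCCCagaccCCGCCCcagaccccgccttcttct
Cacna2d2, chr9:107399630-107399879, plus strand: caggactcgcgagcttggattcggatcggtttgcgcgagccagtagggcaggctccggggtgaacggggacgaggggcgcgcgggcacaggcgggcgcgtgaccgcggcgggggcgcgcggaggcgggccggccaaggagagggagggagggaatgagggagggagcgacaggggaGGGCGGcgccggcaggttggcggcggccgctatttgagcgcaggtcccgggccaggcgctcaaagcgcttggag
Cacna1d first start, chr14:30491157-30491406, minus strand: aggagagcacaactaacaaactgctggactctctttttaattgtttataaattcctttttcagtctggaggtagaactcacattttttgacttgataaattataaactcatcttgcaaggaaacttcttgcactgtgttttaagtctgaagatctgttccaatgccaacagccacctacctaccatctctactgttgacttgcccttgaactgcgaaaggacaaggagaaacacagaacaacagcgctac
Cacna1d second start, chr14:30353487-30353736, minus strand: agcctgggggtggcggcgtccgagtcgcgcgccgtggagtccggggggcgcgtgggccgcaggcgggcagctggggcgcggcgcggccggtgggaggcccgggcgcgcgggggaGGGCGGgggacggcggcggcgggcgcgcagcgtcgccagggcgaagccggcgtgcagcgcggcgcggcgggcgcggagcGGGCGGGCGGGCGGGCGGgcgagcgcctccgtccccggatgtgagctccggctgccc
The Cacng5 window holds 2 GC boxes and the Cacna2d2 window 1. The 2 windows of Cacna1d differ in composition, at 39.6% G and C with 0 GC boxes for the first start and 86.4% with 5 GC boxes, 4 of them overlapping, for the second. The median over all promoters of the table was 52.4% G and C. A GC box was found in 14 of the 37 promoters of the channel genes (37.8%) and in 32.7% of the 32851 promoters of the table. The TATA box letters TATAAA, searched on both strands, occurred in 5.41% of the promoters of the channel genes and in 12.4% of all promoters. In the window of the first Cacna1d start lie 3 matches, some of them overlapping. The letters of the cyclic AMP response element, TGACGTCA, occurred in 0 of the 37 and in 1.55% of all promoters. These matches describe the letters of the windows alone.

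Channel genes varied little between ethanol and saline. Of the 35 genes, 3 were higher (Cacng5, Cacng1 and Cacna2d2) and 1 was lower (Cacna1d) at an unadjusted p under 0.05 in limma, the moderated linear model fitted to all 23410 probe sets with a gene symbol. Over all 19938 genes that threshold was passed by 5.22%, with 2.8% higher and 2.41% lower, and the 4 channel genes are 11.4% of the 35. After Benjamini-Hochberg adjustment over all probe sets, 0 channel genes passed (lowest adjusted p = 0.931), and 0% of all genes did. In the methods' t-test 3 channel genes passed unadjusted, beside 5.04% of all genes. The median log2 change over the 35 genes was -0.004, beside 0 over all genes and -0.006 over genes with a saline mean above 5.36, a level of background taken from receptor genes. Changes ran between -0.17 for Cacna1d and 0.19 for Cacng5, and 0 of the 35 exceeded 1.2-fold. The limit of precision was the number of arrays, and the 95% confidence intervals of all 35 changes stayed within 1.32-fold in either direction, the widest being that of Scn3a. Ethanol and saline pools were fully separate in 3 channel genes (8.57%), beside 10.4% of all genes. With 3 pools a side, the smallest p of an exact permutation test is 0.1, which is why none was run.

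**Figure D1:**
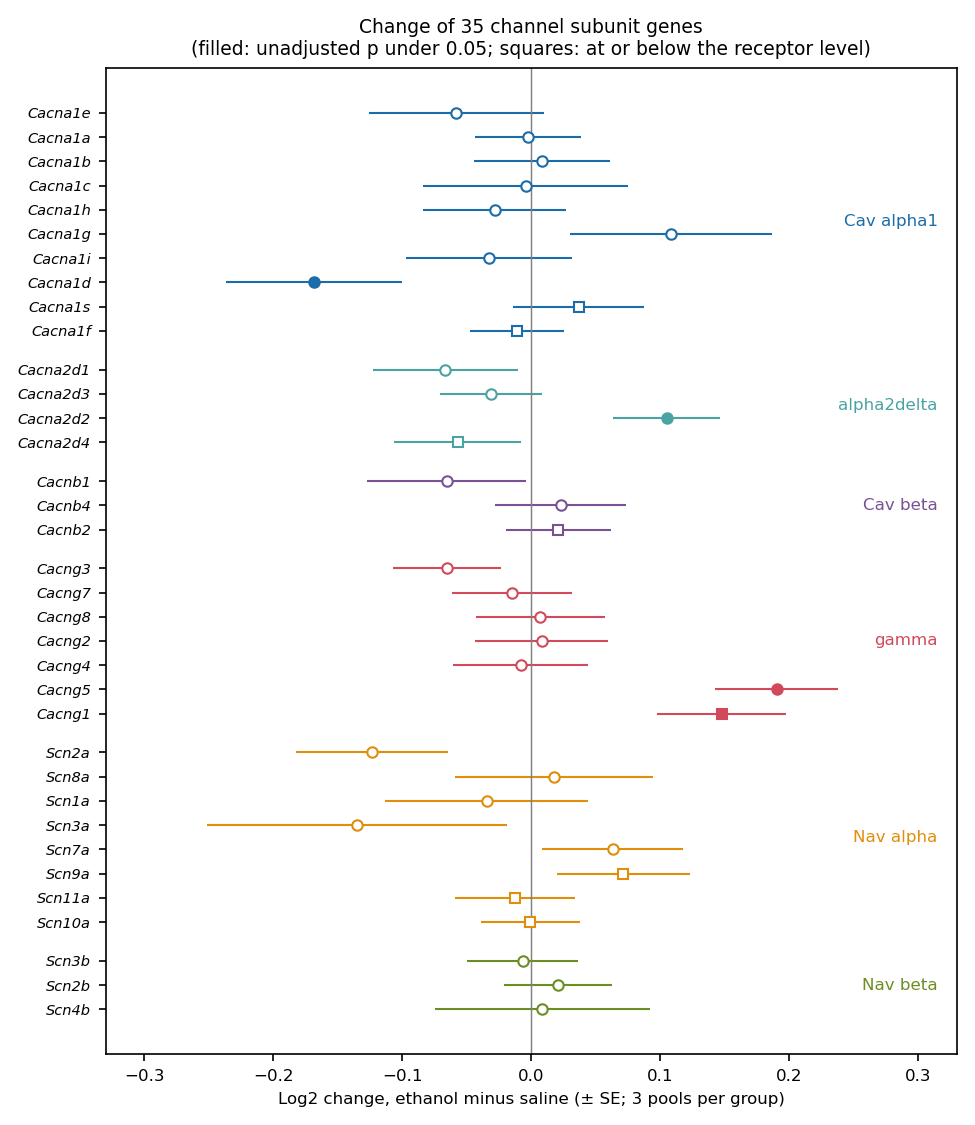
Log2 change (ethanol minus saline) of the 35 channel subunit genes with its standard error, for 3 pools per group, in order of subunit class. Filled symbols are the 4 genes with an unadjusted p under 0.05 and squares the 8 genes at or below the receptor level. All changes lie between -0.17 and 0.19.

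A gene was taken as detected above background where its saline mean exceeded 5.36, the 95th percentile of the saline means of 1190 olfactory and vomeronasal receptor genes, which the hippocampus hardly uses. By this measure 27 of the 35 genes lay above the receptor level. The 8 genes at or below it included Cacna1s and Cacng1, subunits of the skeletal muscle channel, Cacna1f, the pore of retinal photoreceptors, and Scn9a, Scn10a and Scn11a, pores of peripheral sensory neurons. The other 2 were Cacna2d4, also a retinal subunit, and Cacnb2. Among genes above the level, 2 were higher and 1 was lower, beside 4.68% of all 12456 such genes in either direction. Values of different probe sets do not share a scale, so genes are not ranked by abundance.

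Markers of the dissected tissue were present in both groups. All 9 general neuronal markers and all 5 markers each of CA1 and CA2 pyramidal, CA3 pyramidal and dentate granule neurons lay above the receptor level, and 0 of these passed the unadjusted threshold. Markers of the neighbouring thalamus included more calls, with 12 of 18 higher and 0 lower at the unadjusted threshold, in a list that holds genes the study names from these arrays. Relative to its saline mean, that list averaged 0.70, 0.26 and 0.13 in ethanol pools 1, 2 and 3, against -0.02 to 0.03 in the saline pools, and 12 of its genes lay above the receptor level in saline. The 16 measured choroid plexus markers averaged 1.03, -0.27 and 0.61 in ethanol pools 1, 2 and 3, against -0.16 to 0.18 in the saline pools. At the unadjusted threshold 3 of these choroid plexus markers were higher and 0 lower, and of 9 myelin markers 4 were lower and 0 higher. Over all genes 2.8% were higher and 2.41% lower at that threshold. In whole tissue, fewer cells of a type and less RNA per cell cannot be told apart.

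Among the gamma genes, Cacng5, an auxiliary subunit of AMPA receptors, showed the smallest p of all 35 genes. It read 7.48, 7.51 and 7.40 in ethanol pools 1, 2 and 3, against 7.34, 7.23 and 7.25 in saline pools 1, 2 and 3. Every ethanol pool was above every saline pool. The means were 7.46 ± 0.055 after ethanol and 7.27 ± 0.058 after saline (SD, n = 3 each), a log2 change of 0.19 ± 0.048 (SE), or 1.14-fold with a 95% interval of 1.06 to 1.23 (adjusted p = 0.931). The order of the ethanol pools was not that of the thalamus marker means, which were highest in pool 1 and were raised in all ethanol pools. Without ethanol pool 1 the change was 0.18 and passed the unadjusted threshold. The part of those markers in the result was not tested.

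Cacng1, the gamma subunit of the skeletal muscle calcium channel, was also higher, although both of its group means lay below the receptor level. Its values were 5.02, 5.04 and 4.90 in the ethanol pools and 4.88, 4.80 and 4.83 in the saline pools. The pools did not overlap, but ethanol pool 3 and saline pool 1 nearly met. The change was 0.15 ± 0.050 (SE, adjusted p = 0.931). It lost the unadjusted threshold without ethanol pool 1 (0.13), without ethanol pool 2 (0.12) and without saline pool 2 (0.13). Of 7 skeletal muscle markers, 2 lay above the receptor level, and 1 was higher at the unadjusted threshold. That marker was Myh4, a fast myosin heavy chain named after its values were seen, at 5.08, 5.15 and 4.90 in the ethanol pools and 4.98, 4.70 and 4.79 in the saline pools. The other 6 markers were at -0.045 to 0.099 and did not pass, and the median of the 7 was 0.002. Whether muscle markers have a part in the Cacng1 difference was not tested.

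The remaining 5 gamma genes did not pass. Cacng3, a TARP of cortical and hippocampal synapses, measured 11.28, 11.33 and 11.27 after ethanol and 11.41, 11.32 and 11.36 after saline. Its second ethanol pool lay between the saline pools (change -0.065 ± 0.042). Cacng7, a TARP of the same subfamily as Cacng5, measured 10.64, 10.60 and 10.72 after ethanol and 10.62, 10.71 and 10.67 after saline, with overlapping pools. Cacng2 (stargazin), Cacng4 and Cacng8, the other TARPs, were at 0.008 ± 0.052, -0.008 ± 0.052 and 0.007 ± 0.05. In the RefSeq gene order Cacng4 lies between Cacng1 and Cacng5 with 0 coding genes between them, so that the gene flanked by the 2 that were higher differed by less than its own error. Cacng7 and Cacng8 are likewise neighbours, and neither passed.

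Of the 4 alpha2delta genes, Cacna2d2, whose product binds gabapentin-type drugs, was higher after ethanol. It read 7.99, 7.97 and 7.97 in the ethanol pools, against 7.91, 7.81 and 7.89 in the saline pools. The ethanol pools lay close together and all above the saline pools, with means of 7.97 ± 0.013 after ethanol and 7.87 ± 0.052 after saline (SD, n = 3 each). The change was 0.11 ± 0.042 (SE), or 1.08-fold with an interval of 1.01 to 1.15 (adjusted p = 0.931). It lost the unadjusted threshold on leaving out any array other than saline pool 1, and the smallest value was 0.075 without saline pool 2. Cacna2d1, the other gabapentin-binding member, measured 10.91, 10.87 and 10.73 after ethanol and 10.97, 10.89 and 10.85 after saline, and its ethanol pool 3 was the lowest of the 6. Cacna2d3 measured 10.03, 10.05 and 10.06 after ethanol and 10.10, 10.03 and 10.10 after saline. Neither of these passed, at -0.067 ± 0.056 and -0.031 ± 0.04. Cacna2d4, below the receptor level, was at -0.057 ± 0.049.

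**Figure D2:**
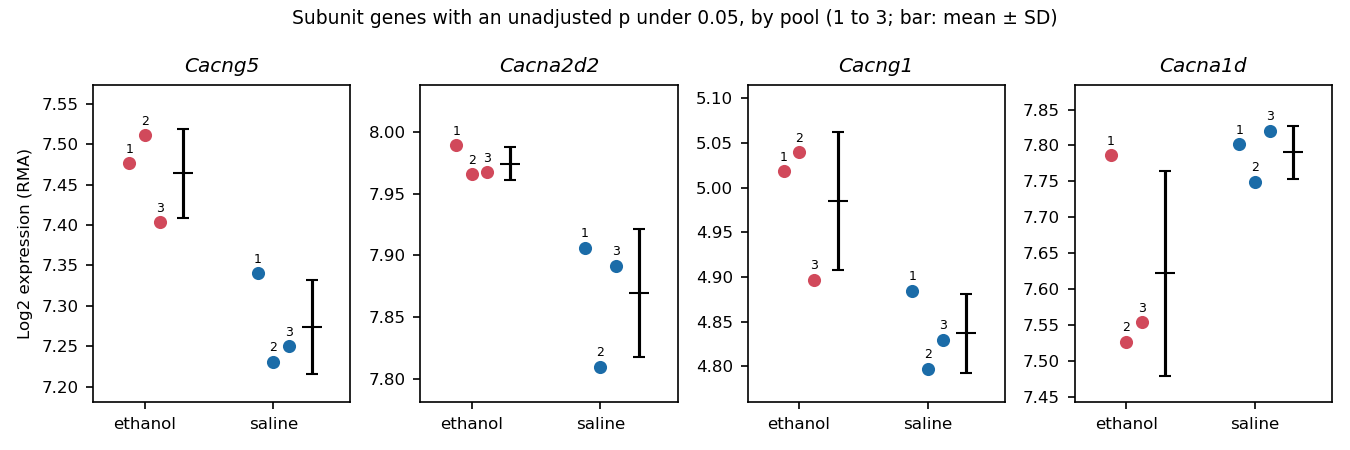
Log2 expression of the 4 channel genes with an unadjusted p under 0.05 in each pool (numbered 1 to 3 in ethanol, left, and in saline, right), with the mean and SD of each group. The pools of Cacng5, Cacna2d2 and Cacng1 do not overlap, whereas ethanol pool 1 of Cacna1d lies among the saline pools.

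Among the 10 pore genes of calcium channels, Cacna1d, which encodes an L-type pore that opens at comparatively negative voltages, was the gene that was lower. It measured 7.79, 7.53 and 7.55 in ethanol pools 1, 2 and 3, against 7.80, 7.75 and 7.82 in the saline pools. Ethanol pools 2 and 3 lay below all saline pools, while ethanol pool 1 lay among them. The means were 7.62 ± 0.14 after ethanol and 7.79 ± 0.037 after saline (SD, n = 3 each), a change of -0.17 ± 0.068 (SE), or 0.89-fold with an interval of 0.80 to 0.99 (adjusted p = 0.931). Without ethanol pool 1 the change was -0.25 and passed the unadjusted threshold. It did not pass without ethanol pool 2 (-0.12), without ethanol pool 3 (-0.13), without saline pool 1 (-0.16) or without saline pool 3 (-0.15), nor in the methods' t-test.

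The other pore genes did not pass. Cacna1e, the R-type pore, measured 10.71, 10.67 and 10.52 after ethanol and 10.80, 10.59 and 10.69 after saline. Cacna1a, the P/Q-type pore of most fast synapses, measured 9.92, 9.94 and 9.89 after ethanol and 9.96, 9.88 and 9.92 after saline. In both genes the groups overlap, with changes of -0.058 ± 0.068 and -0.0025 ± 0.041. The N-type pore Cacna1b and the main L-type pore of the brain, Cacna1c, were at log2 differences of 0.008 ± 0.053 and -0.004 ± 0.08. Cacna1c nevertheless spread widely between the ethanol pools, at 9.45, 9.29 and 9.14, against 9.36, 9.20 and 9.33 in the saline pools. The T-type pores, which open near the resting voltage, are encoded by Cacna1g, Cacna1h and Cacna1i. Cacna1g, the T-type pore of thalamic relay neurons, measured 8.72, 8.50 and 8.48 after ethanol and 8.53, 8.32 and 8.51 after saline. Its highest value was in ethanol pool 1, the pool with the highest thalamus marker mean, and its change was 0.11 ± 0.078. That pool also had the highest choroid plexus and dentate granule neuron marker means. It was the highest array in 9 of the 27 channel genes above the receptor level. Whether thalamus markers have a part in the Cacna1g value was not tested. Cacna1h and Cacna1i were at -0.028 ± 0.055 and -0.033 ± 0.064.

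The 3 calcium channel beta genes gave 0 calls. Cacnb1 measured 10.67, 10.86 and 10.70 after ethanol and 10.73, 10.86 and 10.84 after saline. Cacnb4, whose loss gives the lethargic mouse its ataxia and seizures, measured 10.78, 10.83 and 10.78 after ethanol and 10.82, 10.67 and 10.82 after saline. Both genes overlapped between the groups, with changes of -0.066 ± 0.062 and 0.023 ± 0.051. Cacnb2 lay below the receptor level.

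The 8 sodium channel alpha genes also gave 0 calls. Scn2a, the pore gene of axons and initial segments of excitatory neurons, measured 12.93, 12.79 and 12.71 in ethanol pools 1, 2 and 3, against 12.94, 12.89 and 12.97 in the saline pools. Ethanol pools 2 and 3 lay below all saline pools and ethanol pool 1 lay among them, with a change of -0.12 ± 0.059 that did not pass. Without ethanol pool 1 it was -0.18 and passed the unadjusted threshold, and without ethanol pool 3 it was -0.073 and did not. Scn8a, the pore of mature initial segments and nodes of Ranvier, measured 10.74, 10.61 and 10.52 after ethanol and 10.73, 10.47 and 10.63 after saline (0.017 ± 0.077). Scn1a, the pore of fast-spiking interneurons that is lost in human Dravet syndrome, measured 9.51, 9.30 and 9.18 after ethanol and 9.42, 9.30 and 9.37 after saline. Scn3a, best known from the embryonic brain, measured 7.49, 7.32 and 6.96 after ethanol and 7.41, 7.44 and 7.33 after saline. In Scn1a and Scn3a ethanol pool 1 was the highest array and ethanol pool 3 the lowest, and the changes were -0.034 ± 0.079 and -0.135 ± 0.116. The SD of Scn3a was 0.27 between ethanol pools and 0.056 between saline pools (n = 3 each). Scn7a, a sodium sensor rather than a voltage-gated pore, was at 0.063 ± 0.055. Scn3a and Scn2a are neighbours in the RefSeq order, as are Scn1a, Scn9a and Scn7a, with 3 coding genes between Scn2a and Scn1a.

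Scn2a could be read in more than 1 place. The array carries 14 probe sets for it, against 2 each for Cacna2d1, Cacng2 and Scn9a and 1 for every other channel gene. All 14 had a negative change, between -0.20 and -0.031 with a median of -0.0815, and 1 of the 14 passed the unadjusted threshold. That probe set measured 10.30, 10.31 and 10.06 after ethanol and 10.46, 10.36 and 10.45 after saline, and its groups did not overlap. Ethanol pool 3 was the lowest of the 6 arrays in 14 of the 14 probe sets and saline pool 1 was the highest in 12. The probe sets read the same 6 RNA pools and are not replicates of each other. Averaged over the 14 probe sets, Scn2a measured 11.11, 11.06 and 10.89 after ethanol and 11.19, 11.02 and 11.11 after saline, so that ethanol pool 2 lay between saline pools 2 and 3 there, unlike in the brightest probe set.

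**Figure D3:**
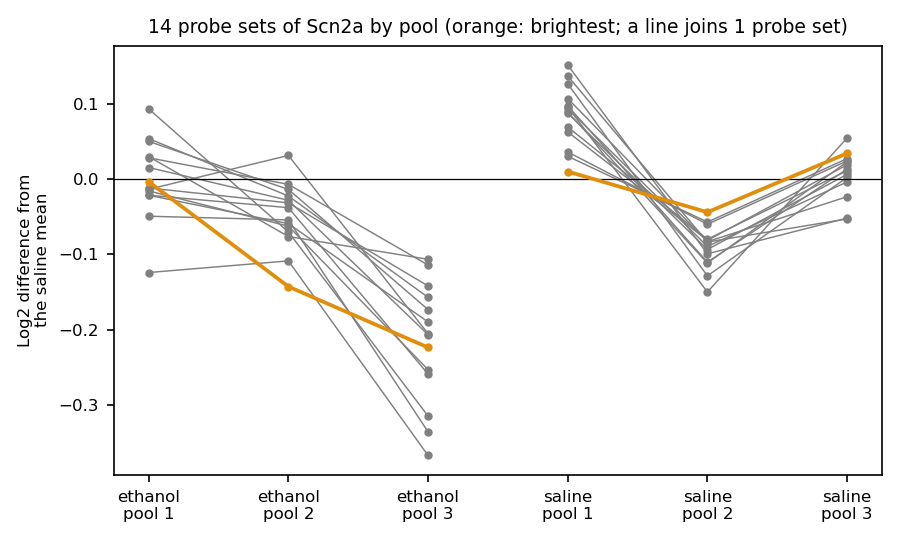
Log2 difference from the saline mean of the 14 Scn2a probe sets in the 3 ethanol pools (left) and 3 saline pools (right), where each line joins the values of 1 probe set and the brightest is orange. Ethanol pool 3 is the lowest array in all 14, and saline pool 2 lies below the saline mean throughout.

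The 3 sodium channel beta genes did not pass. Scn3b measured 11.74, 11.81 and 11.72 after ethanol and 11.77, 11.79 and 11.73 after saline. Scn2b, a disulphide-linked beta subunit, measured 10.63, 10.62 and 10.62 after ethanol and 10.66, 10.55 and 10.61 after saline. The changes were -0.007 ± 0.043 and 0.021 ± 0.042, each smaller than its error. Scn4b, the neighbour of Scn2b in the RefSeq order, measured 7.13, 7.00 and 6.76 after ethanol and 6.99, 6.96 and 6.91 after saline. As with Scn1a and Scn3a, its ethanol pool 1 was the highest array and its ethanol pool 3 the lowest.

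Channel genes also differed between single pools of the same group. Of the 27 channel genes above the receptor level, ethanol pool 3 was the lowest array in 11 (40.7%), beside 20.5% of all 12456 genes above that level. Saline pool 2 was the lowest in 9 (33.3%, beside 14.3% of all genes) and the highest in 0 (beside 21.9%). Ethanol pool 1 was the highest in 9 (33.3%, beside 15.5%) and saline pool 1 in 8 (29.6%, beside 15.3%). The median difference of the 27 genes from their saline means was 0.009, 0.015 and -0.048 in ethanol pools 1, 2 and 3, against 0.047, -0.044 and 0.006 in saline pools 1, 2 and 3. The range over the saline pools was thus no narrower than that over the ethanol pools. In the 5 sodium channel alpha genes above the level (Scn1a, Scn2a, Scn3a, Scn7a and Scn8a) the medians were 0.135, -0.059 and -0.186 in the ethanol pools, against 0.015, -0.044 and 0.021 in the saline pools. The mean of the 9 general neuronal markers lay between -0.018 and 0.015 from its saline mean in all 6 arrays, though single markers varied more. The 5 dentate granule neuron markers averaged 0.103, -0.054 and -0.201 in the ethanol pools, against -0.072, 0.076 and -0.004 in the saline pools. Their order of ethanol pools was that of the sodium channel medians. Among the saline pools the orders differed, with pool 2 the highest in the dentate markers and the lowest in the sodium channel medians. The order of the ethanol pools was not particular to the dentate markers. It was also that of the thalamus markers (0.697, 0.259 and 0.134) and of the endothelial and mural cell markers (0.061, -0.018 and -0.036). Scn7a ran the other way in ethanol pool 3, at 0.091, where the other 4 alpha genes were at -0.435 to -0.085. The part of dentate granule cells in the spread of these genes was not tested.

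**Figure D4:**
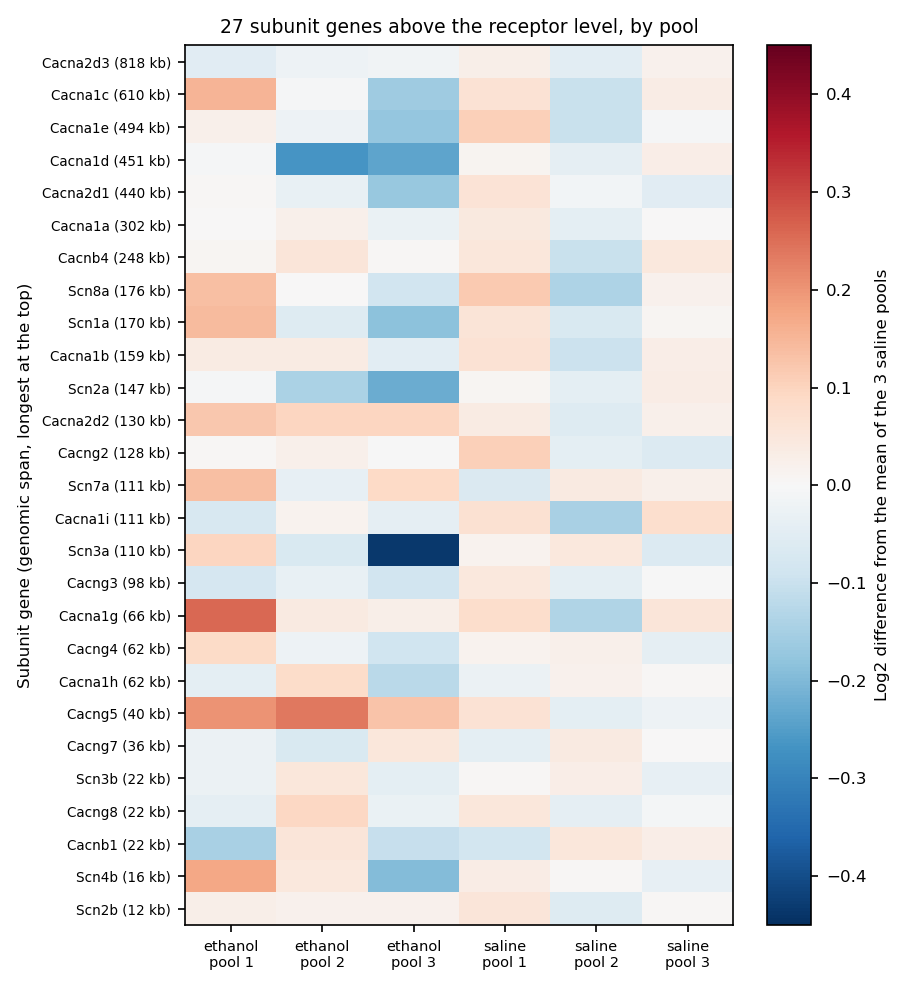
Log2 difference from the saline mean of the 27 channel genes above the receptor level (rows, ordered by genomic span in kilobases) in the 3 ethanol pools (left) and 3 saline pools (right). Ethanol pool 3 is the lowest array in 11 genes and saline pool 2 in 9, and the lowest value is that of Scn3a in ethanol pool 3.

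Channel genes are often long, and the arrays differed with gene length across all genes above the receptor level. Genomic span was taken from the RefSeq table of GRCm38.p6, which is not known to be the build of the array, for 12431 of the 12456 genes above the receptor level. These genes were divided by span into 10 bins of like size. From the bin of the shortest genes to that of the longest, the median difference from the saline mean was 0.036 and -0.031 in ethanol pool 3, against 0.017 and -0.019 in saline pool 2 and -0.018 and 0.011 in saline pool 1. Of the 27 channel genes, 20 lay in the 3 bins of the longest genes and 11 of them in the last bin. In these 20 the median was 0.015, -0.013 and -0.086 in the ethanol pools, against 0.049, -0.046 and 0.021 in the saline pools. In the other 7 it was -0.027, 0.05 and -0.03 in the ethanol pools, against 0.032, 0.006 and -0.01 in the saline pools. Over all genes of the 3 bins of the longest genes, the medians in ethanol pool 3 were -0.024, -0.034 and -0.031, nearer to the saline mean than the -0.086 of the 20 channel genes. With the median deviation of genes of like span and level subtracted from each array, an alternative chosen after the data were seen, the unadjusted threshold was passed by 3 higher and 1 lower channel genes. Cacna1d was then at -0.16 and passed, and Scn2a was at -0.11 and did not pass.

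**Figure D5:**
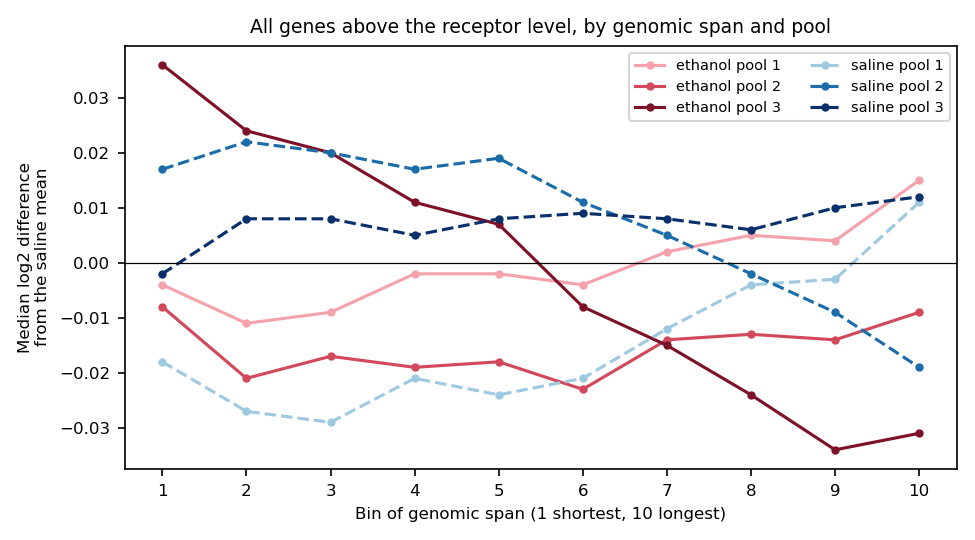
Median log2 difference from the saline mean in each pool, for all genes above the receptor level in 10 bins of genomic span (1 shortest, 10 longest), with ethanol pools as solid and saline pools as dashed lines. Ethanol pool 3 runs between 0.036 in the bin of the shortest genes and -0.031 in that of the longest, and saline pool 2 between 0.017 and -0.019.

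A list of 76 genes, called partner genes here, held genes that bind, anchor or regulate these channels. It also held AMPA receptor genes and their auxiliaries, the sodium leak channel and intracellular calcium release channels. Of the 76 genes 72 were measured, 1 was higher and 0 were lower at the unadjusted threshold, beside 2.8% higher and 2.41% lower of all genes. Their median change was -0.019, beside 0 over all genes and -0.006 over genes above the receptor level. The list held 9 anchors of the node and axon initial segment, 4 fibroblast growth factor homologues, 3 genes of the sodium leak channel, 9 active zone tethers and 9 AMPA receptor partners, among others, and 0 of the genes in these groups passed. The 1 gene that passed was Stac, an adaptor of L-type channels, which measured 5.42, 5.41 and 5.42 in the ethanol pools and 5.05, 5.29 and 5.25 in the saline pools. All ethanol pools lay above all saline pools, at 0.22 ± 0.063 (SE, adjusted p = 0.931), although its saline mean was below the receptor level. The study also lists Stac from these arrays, so the value is no independent evidence. By ddPCR the study found its change in Stac not significant, and those ddPCR data were not analysed here.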

How the data were processed

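Expression was measured on 6 arrays, 3 of ethanol and 3 of saline pools, each of RNA from 3 mice. The authors summarized the probes with RMA and deposited log2 values, 1 per probe set and array, which were used with no further normalization. RMA's version and the array's genome build were not given in the sources used here. Probe sets were named from the platform annotation, which gives 1 symbol to 21789 of 35556, more to 1621 and none to 12146. Those with any symbol, 23410, entered the test.

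The groups were compared in limma 3.58.1 (lmFit, eBayes) under R 4.3.3 by a two-sided test without covariates, and p-values were adjusted by Benjamini-Hochberg over these probe sets. For these arrays the methods name an ANOVA, which between 2 groups equals a t-test with pooled variance. It was run as an alternative and is called the methods' t-test. The p-values measure the spread between pools of different mice. Precision is limited by the number of arrays, with a median SE of 0.049. The procedure was run on simulated data with independent noise for each probe set. That simulation held no differences shared by many genes of a pool, so it cannot tell how the test behaves where pools differ in that way. RefSeq (GRCm38.p6) gave gene order and span alone, and promoter sequence. Figures were drawn with matplotlib 3.10.9.

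The members and lists were chosen with earlier results of these data known. Genes given with all 6 values are those past the unadjusted threshold and, in each subunit class, the 2 with the highest saline mean. Cacna1c, Cacna1g, Scn1a, Scn3a, Scn4b and Myh4 were added after their values were seen. Alternatives were the methods' t-test, a replicate block, median centring, quantile normalization, filters at the median and at the receptor level, a 99th percentile for that level, 1-symbol or all probe sets, the mean of the probe sets of a gene, an intensity trend, array weights and each array left out. The correction for gene span was added after the data were seen. Markers of other cell types are lists of known genes, and the thalamus list holds genes that the study names from these arrays.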

Additional observations from a re-analysis of the deposited data

How the results depend on the processing

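With 1 array left out at a time, the channel genes past the unadjusted threshold numbered 1 to 3 higher and 0 to 3 lower, 0 to 0 passed after adjustment, their median change was -0.0181 to 0.0188, the partner genes passing numbered 1 to 3, and all probe sets passing 834 to 1484, beside 1202 with all arrays. Without ethanol pool 1 there were 1 higher and 3 lower genes, against 3 and 1 with all arrays. The count of higher genes was also 1 without ethanol pool 2 and without saline pool 2, and that of lower genes was 0 without ethanol pool 2 or 3 and without saline pool 1 or 3. All probe sets passing numbered 494 among those above the median level, 662 above the receptor level and 1969 with unnamed probe sets included. Lower channel genes numbered 0 with unnamed probe sets and in the methods' t-test, and 2 with an intensity trend and with array weights, where Scn2a joined Cacna1d. Partner genes passing numbered 2 with the replicate block, 0 above the receptor level, 4 in the methods' t-test and 2 after the correction for gene span. Cacng5 passed in all 18 alternatives, with a change of 0.17 to 0.22. Cacna2d2 lost its call with an intensity trend and with the replicate block. Genes near 0 changed sign: with 1 array left out Scn8a ranged from -0.0525 to 0.077, Cacnb4 from -0.027 to 0.0486, Cacng7 from -0.0482 to 0.0115, Cacna1a from -0.0251 to 0.0188, Scn3b from -0.0348 to 0.0117 and Scn2b from -0.0077 to 0.0473. Cacna1a was 0.0075 under quantile normalization, 4e-04 with array weights and 0.013 after the correction for gene span, and Scn3b was 0.0111 with array weights and 0.0063 after that correction. The cause of these moves was not tested.

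Ethanol and saline pools share replicate numbers that nothing in the labels ties to litters or days. Deviations of same-numbered pools from their group means correlated at -0.049, -0.022 and 0.059 across probe sets. Such deviations cancel within a group, so these correlations cannot settle which pools share litters. The labels name no pairs and none were formed, so the main p-values take no account of the litters common to both groups. With the number as a replicate block, 2 channel genes were higher and 1 lower.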
